A study of Mus musculus with 12 samples.

Results

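The effect of diet on liver gene expression was followed here over both genotypes of the study together: the mean of the high-fat groups minus the mean of the low-fat groups, 6 arrays against 6, with genotype kept as a term. The members were the 28898 probe sets, of 45141 on the array, that the array's annotation ties to a single gene, and these stood for 17097 genes. The samples were extracts of total RNA from livers of male mice. The mice were either wild type (WT) or lacked Pml (KO), the gene of the protein that builds the nuclear bodies named after it. They had eaten for 20 weeks a control diet low in fat (LF), which supplied 10% of its calories as fat, or a high-fat diet (HF), which supplied 60%. All mice were fasted for 8 h before tissue was taken, so every group, the control groups too, is a fasted one. The 4 groups were WT LF, WT HF, KO LF and KO HF, each with 3 extracts from a group of 8 mice. Each extract was hybridised to an Affymetrix array, and an array is written as group and number, so that KO LF 2 is the second knockout array on the low-fat diet. The labels do not state that each extract came from its own mouse, nor how the gene was removed, nor the strain or age. A p-value here thus covers variation among the extracts, which may be technical, and the number of arrays limits the precision.

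Values are log2 signals, in which a difference of 1 is a doubling. A diet difference is always high-fat minus low-fat, and a gene is said to have risen or fallen where limma's test, adjusted by Benjamini-Hochberg over all 28898 probe sets, gave an adjusted p under 0.05. A gene with several probe sets is read from its brightest one. The array medians lay between 3.94 and 4. Pml was at 5.4, 4.92 and 5.07 on the WT LF arrays and 4.97, 5.35 and 5.38 on the WT HF arrays. On the KO LF arrays it was at 3.7, 3.59 and 3.59, and on the KO HF arrays at 3.43, 3.04 and 3.82, so every knockout array lay below every wild-type array, as labelled. Diet did not change Pml past the threshold (log2 difference -0.05, SE 0.131, limma adjusted p = 0.934). The sources used here do not say whether its probe sets lie in the removed part of the gene. The 3' to 5' difference of actin probe sets, which grows as RNA degrades, overlapped between the diets, at a log2 difference of 1.26 to 1.85 on low-fat and 1.41 to 1.64 on high-fat arrays. Of 10 hepatocyte markers measured, 0 were below a log2 signal of 5. KO LF 2 and KO HF 3 stood apart from the other arrays in having the lowest macrophage marker levels, so the main counts are also given without these 2 arrays, an alternative chosen after seeing the data.

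The liver both makes and burns fatty acids. After a meal rich in carbohydrate, acetyl-CoA from glucose is carboxylated by the acetyl-CoA carboxylases, joined into palmitate by fatty acid synthase, then lengthened by elongases and desaturated by stearoyl-CoA desaturase, under transcription factors that include SREBP-1c and ChREBP. In fasting, fatty acids released by adipose tissue enter mitochondria through the carnitine shuttle and are shortened by beta-oxidation, while peroxisomes begin the breakdown of very long chains. The nuclear receptor PPAR-alpha binds fatty acids and switches on both oxidation systems. Polyunsaturated fatty acids are known to repress SREBP-1c, and a diet high in fat at the cost of carbohydrate is commonly reported to lower lipogenic enzymes in mouse liver.

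Over both genotypes, the high-fat diet changed 434 of 28898 probe sets (1.5%), of which 244 rose (0.844%) and 190 fell (0.657%). Counted as genes, 201 of 17097 rose (1.18%) and 135 fell (0.79%), 336 in all (1.97%). An unadjusted p under 0.05 was found for 3646 probe sets, where 1444.9 would be expected with no effect. Most changes were small. The median size among the genes that rose was 0.46, with 117 of 201 under 0.5 and 24 over 1, and among those that fell it was 0.48, with 72 of 135 under 0.5 and 18 over 1. Over all genes the median difference was 0.0033, 51.4% of genes had higher values on the high-fat diet and 91.1% lay within 0.25 of 0. The list counts below are to be read beside this 51.4% and the shares of all genes that rose or fell. The 6 arrays of a diet did not overlap with the 6 of the other diet for 124 of the genes that rose and 87 of those that fell. Over all genes the same held for 195 higher on high fat (1.14%) and 154 lower (0.901%).

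The other probe sets of the called genes told mostly the same direction. Of the 336 genes, 168 had further probe sets, 267 in number. Of these, 227 had the same sign as the brightest, 56 passed with the same sign and 0 passed with the opposite one. Just inside the threshold were Abhd6 (adjusted p = 0.0496) and Tenm3 (adjusted p = 0.0499), and just outside it were Plgrkt (adjusted p = 0.0503) and the peroxisomal oxidase Acox2 (adjusted p = 0.0505).

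The number of calls depended on single arrays. It fell from 434 to 216 without WT LF 1, 221 without KO HF 2, 236 without WT HF 2, 252 without WT HF 1, 260 without KO LF 1, 269 without KO HF 3 and 282 without WT HF 3. Leaving out any of the other 5 arrays gave between 315 and 489 calls. Without KO LF 2 and KO HF 3 together 211 probe sets passed, 100 higher and 111 lower, and 187 of them were among the 434.

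The diet difference was also taken within each genotype. The differences of the genotypes share no array, but they come from 1 fit of all 12 arrays and share its variance estimate. In wild-type livers 25 probe sets passed (0.0865%), 9 higher and 16 lower, which stand for 8 (0.0468%) and 11 (0.0643%) of all genes, together 0.111%. In knockout livers 228 probe sets passed (0.789%), 148 higher and 80 lower, for 115 (0.673%) and 56 (0.328%) of all genes, together 1%. These counts do not show that diet acted more strongly in knockout livers, because the difference itself was tested and 0 of 28898 probe sets passed. The smallest adjusted p of that test was 0.772, with 1625 probe sets at an unadjusted p under 0.05 against 1444.9 expected. Without KO LF 3, 1 probe set passed, that of AW112010, whose diet effect was larger by 1.02 in knockout livers (adjusted p = 0.0368); it is named after its value was seen. Fitted on their own 6 arrays, wild-type livers had 24 calls, 16 of them among the 25, and knockout livers 80, of which 76 were among the 228. The wild-type count was 13 without WT LF 1 and 15 without WT HF 2. The knockout count ranged more widely, at 73 without KO HF 2, 104 without KO LF 1, 128 without KO LF 2, 135 without KO HF 3, 147 without KO HF 1 and 394 without KO LF 3.

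Genes called in one genotype were then read in the other, whose arrays enter the call through the shared variance but not the difference itself. All 19 genes called in wild-type livers had the same sign in knockout livers and 17 were called there too. Their median difference was 1.22 in wild-type livers and 1.31, in the same direction, in knockout livers. Of the 171 genes called in knockout livers 159 had the same sign in wild-type livers (93%), with a median of 0.74 in knockout and 0.30 in wild-type livers. Over all 17097 genes 56.8% had the same sign in both genotypes, and Pearson's r between the wild-type and knockout differences was 0.379 across genes, which are not independent replicates. The scatter of genes in the 2 genotypes shows that 200 of the 201 rises and 134 of the 135 falls had the same sign in both genotypes. These genes were called on the average of both differences, which favours a shared sign, so these counts do not measure agreement between the genotypes. By value, 165 of the 201 rises and 93 of the 135 falls were larger in knockout livers, with medians of 0.33 in wild-type and 0.59 in knockout livers for the rises and of -0.42 and -0.54 for the falls. Differences were wider in knockout livers over all genes too, where 83.7% lay within 0.25 of 0, against 89.1% in wild-type livers. With 0 probe sets past the test of the difference, these counts do not show a stronger response in knockout livers.

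**Figure D1:**
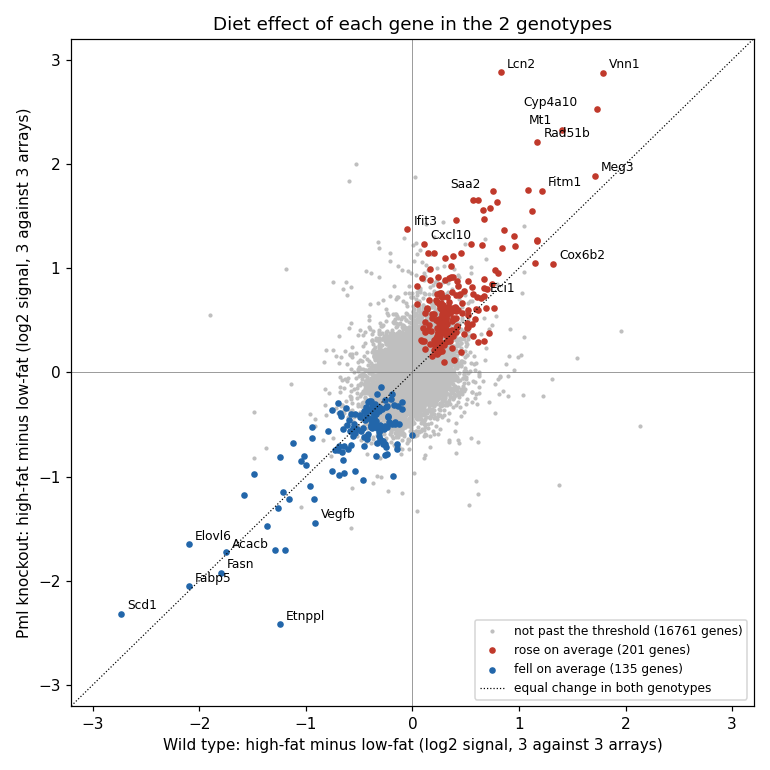
Each point is a gene, read from its brightest probe set. The x axis gives the diet difference in wild-type livers and the y axis that in knockout livers, both in log2 signal from 3 against 3 arrays, with the 201 genes that rose on average in red, the 135 that fell in blue and the others in grey. Scd1, Elovl6, Fasn and Acacb lie at the lower left in both genotypes, and Meg3, Fitm1 and Cox6b2 at the upper right.

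The enzymes that build fatty acids had the lowest median of the gene lists. Of 20 measured genes of fatty acid synthesis, 13 fell and 0 rose, against 0.79% of all genes falling, and all 20 had lower values on the high-fat diet. Their median difference was -0.52, with -0.56 in wild-type and -0.49 in knockout livers, beside 0.0033 over all genes. The 6 low-fat and 6 high-fat arrays were fully separated for 9 of the 20, against 0.901% of all genes separated with lower values on the high-fat diet. Without each array in turn 9 to 14 members fell, and 12 fell without KO LF 2 and KO HF 3. Of the 15 largest falls among all genes, 6 belong to this list.

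Scd1, the stearoyl-CoA desaturase that makes monounsaturated fatty acids, had the largest fall of any gene. Its lowest, median and highest log2 signals were 13.34, 13.55 and 13.63 on low-fat arrays and 10.34, 11.09 and 11.41 on high-fat arrays. The groups lay far apart, and within the high-fat diet the lowest array was WT HF 2. The fall was 5.75-fold (log2 difference -2.52, SE 0.118, limma adjusted p = 9.87e-08). The other, dimmer probe set of Scd1 (mean log2 signal 7.87) had a difference of -4.49. Elovl6, the elongase that turns palmitate into stearate, was at 8.29, 8.79 and 9.0 on low-fat and 6.57, 6.82 and 7.43 on high-fat arrays. It fell 3.66-fold (log2 difference -1.87, SE 0.139, adjusted p = 1.59e-05). Fasn, fatty acid synthase, was at 9.08, 9.58 and 10.26 on low-fat and 7.56, 7.75 and 7.99 on high-fat arrays. Its low-fat arrays spread over about 1 unit in both genotypes, at 10.07, 9.6 and 9.08 in WT and 10.26, 9.18 and 9.56 in KO livers, while no high-fat array reached 8. The fall of Fasn was 3.63-fold (log2 difference -1.86, SE 0.18, adjusted p = 0.000104).

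Both acetyl-CoA carboxylases fell. Acacb, the isoform at the mitochondrial surface whose product malonyl-CoA blocks the carnitine shuttle, was at 6.3, 7.28 and 7.89 on low-fat and 4.94, 5.49 and 5.78 on high-fat arrays (log2 difference -1.74, SE 0.178, adjusted p = 0.000154). Acaca, the cytosolic isoform that feeds fatty acid synthase, was at 8.88, 9.22 and 9.75 and 7.58, 7.81 and 8.02 (log2 difference -1.5, SE 0.119, adjusted p = 2.37e-05). Neither gene had a high-fat array as high as its lowest low-fat array. The suppliers of the pathway followed. Me1, malic enzyme, a source of NADPH, fell 2.73-fold and Acly, ATP citrate lyase, which makes cytosolic acetyl-CoA, 1.93-fold (log2 difference -1.45 and -0.95, adjusted p = 0.00012 and 0.00379). All 7 of these genes kept their call without each array in turn.

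Smaller falls were found for Elovl5, an elongase of polyunsaturated fatty acids (log2 difference -0.52), and Acsl5, an acyl-CoA synthetase (-0.38), both called without each array in turn. Acss2, which activates acetate, had -0.73 and missed the threshold without KO HF 2, WT HF 1, WT HF 2 or WT LF 1 (-0.72 to -0.68, adjusted p = 0.0503 to 0.0574). Fads1, the delta-5 desaturase, had -0.41, and was not called without KO HF 1, KO HF 2, KO LF 1, KO LF 3, WT HF 1, WT HF 2, WT LF 1, WT LF 2 or WT LF 3 (-0.43 to -0.35, adjusted p = 0.0554 to 0.117). Elovl1 had -0.40, a call lost without KO HF 1, KO HF 2, KO HF 3, KO LF 1, KO LF 2, KO LF 3, WT HF 1, WT HF 2, WT LF 1 or WT LF 2 (-0.42 to -0.33, adjusted p = 0.0551 to 0.131), and without KO LF 2 and KO HF 3 together (-0.43, adjusted p = 0.101). The citrate carrier Slc25a1 had -0.33, and its call did not hold without KO HF 1, KO HF 2, KO HF 3, KO LF 1, KO LF 3, WT HF 1, WT HF 2, WT LF 1, WT LF 2 or WT LF 3 (-0.33 to -0.27, adjusted p = 0.0736 to 0.131). Among the 7 members that did not pass, Pklr, liver pyruvate kinase, had a difference of -0.52 (adjusted p = 0.0749) and Fads2 -0.25 (adjusted p = 0.3). Thrsp, a protein of lipogenic tissue, was at -0.01 (adjusted p = 0.979), so the values of this list ranged from near 0 to -2.52.

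**Figure D2:**
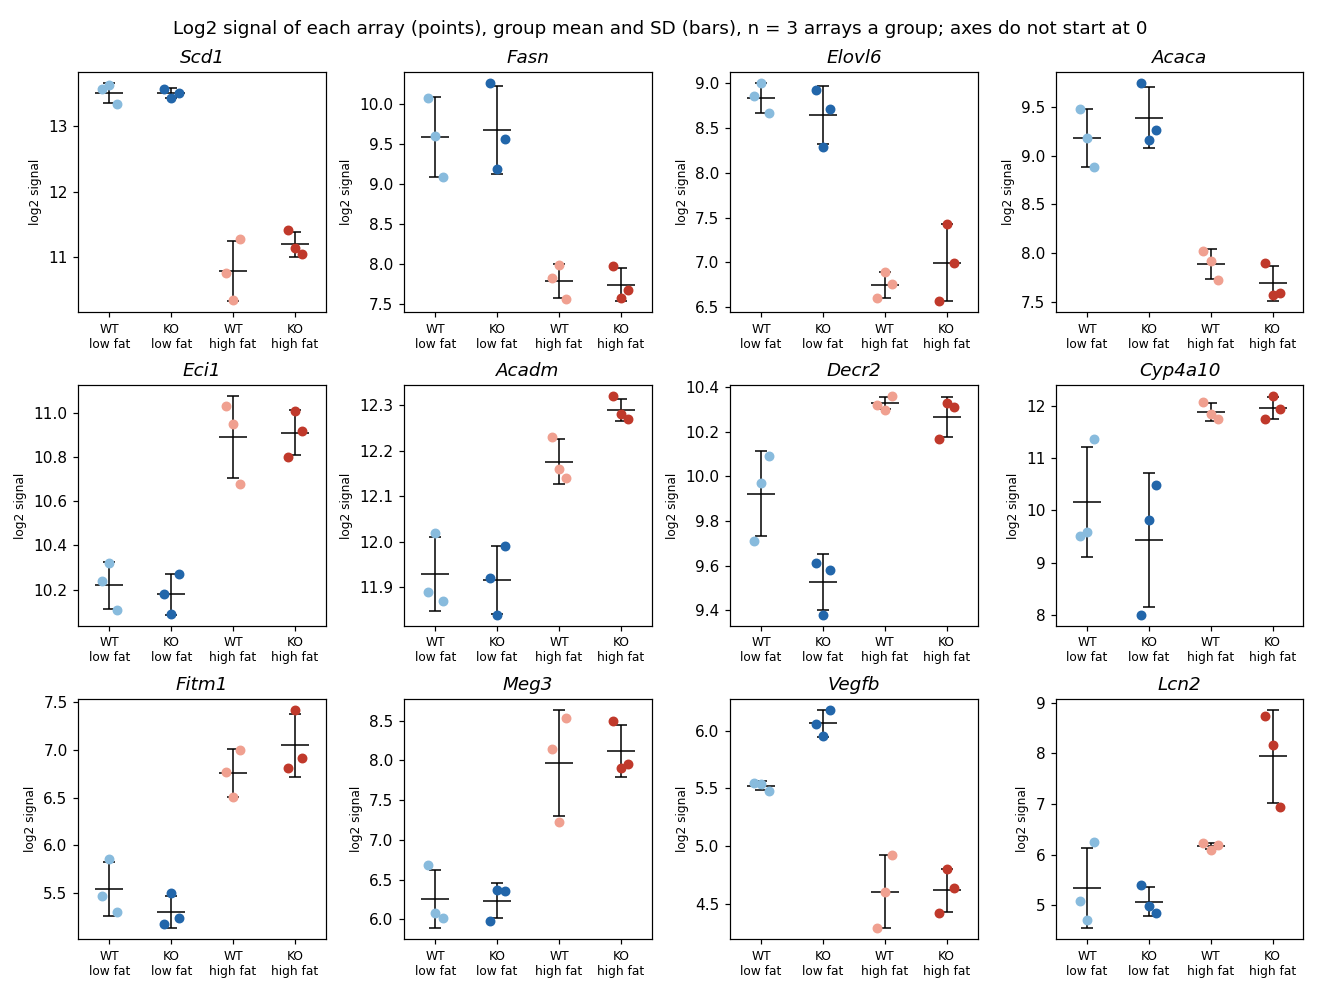
The 12 panels plot the log2 signal of single genes on each array, with points for arrays, a long bar for the mean of the 3 arrays of a group and whiskers for the SD. Lipogenic genes (top row) were lower on all high-fat arrays, oxidation genes (middle row) higher, and of the bottom row Fitm1 and Meg3 were higher, Vegfb lower and Lcn2 highest in the KO HF group; the y axes do not start at 0.

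Since these genes moved together, the 250 bases before their annotated starts were searched on both strands for 4 motifs. These were CCAAT, the box bound by NF-Y, CACGTG, the E-box, TCACNCCAC, a sterol regulatory element, and direct repeat 1, the repeat bound by PPAR-alpha. Promoters came from RefSeq (build GRCm38.p6), which held 11 of the 13 genes of fatty acid synthesis that fell, with no entry for Scd1 and Fads1. CCAAT lay in 8 of the 11 (72.7%) and in 12 of the 17 measured members with a promoter (70.6%), against 39.6% of 13605 measured genes and 33.9% of 32851 promoters. CACGTG lay in 2 of the 11 (18.2%, against 8.75% of measured genes) and TCACNCCAC in 0 of the 11 (1.30% of measured genes). Of the mitochondrial oxidation genes that rose, 8 had a promoter, of which 2 held CCAAT (25%) and 0 held direct repeat 1 (0.0662% of measured genes). All 14 measured cholesterol genes with a promoter held CCAAT (100%), as did 10 of 16 peroxisomal genes (62.5%). Of the peroxisomal genes that rose, 4 had a promoter and 3 of these held CCAAT (75%). TCACNCCAC lay in 1 of these 4 (25%), in 1 of the 16 peroxisomal genes (6.25%) and in 1 of the 14 cholesterol genes (7.14%). A match is a description of letters and not a bound site, and a missing match says only that these letters are not in this window. The promoters of 3 fatty acid synthesis genes and of Insig1, which all fell, are shown for their CCAAT or E-box matches, and that of Eci1, the largest rise among the mitochondrial oxidation genes, is shown beside them for its lack of any match. They were picked for display and do not stand for a split between falls and rises. Elovl6, Acaca and Acly, which fell, had no match, and Hadh and Etfdh, which rose, each held CCAAT. Capitals mark the matches (CCAAT reads ATTGG on the other strand), and each run ends at the base before the annotated start.
Fasn (chr11:120824548-120824797, minus strand): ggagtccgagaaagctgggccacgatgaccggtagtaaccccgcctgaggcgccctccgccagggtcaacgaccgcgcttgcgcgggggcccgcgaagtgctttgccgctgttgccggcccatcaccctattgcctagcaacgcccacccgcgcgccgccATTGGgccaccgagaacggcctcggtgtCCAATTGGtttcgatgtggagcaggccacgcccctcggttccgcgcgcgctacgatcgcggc
Elovl5 (chr9:77917115-77917364, plus strand): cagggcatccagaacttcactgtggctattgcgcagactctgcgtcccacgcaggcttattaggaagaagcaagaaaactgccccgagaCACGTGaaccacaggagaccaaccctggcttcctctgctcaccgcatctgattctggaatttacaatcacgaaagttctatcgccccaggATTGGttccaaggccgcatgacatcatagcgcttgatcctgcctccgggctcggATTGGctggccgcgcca
Slc25a1 (chr16:17928220-17928469, minus strand): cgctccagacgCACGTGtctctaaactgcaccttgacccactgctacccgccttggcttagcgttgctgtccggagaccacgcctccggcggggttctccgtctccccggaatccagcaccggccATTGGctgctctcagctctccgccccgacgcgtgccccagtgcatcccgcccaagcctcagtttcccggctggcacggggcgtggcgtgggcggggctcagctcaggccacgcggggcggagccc
Insig1 (chr5:28071162-28071411, plus strand): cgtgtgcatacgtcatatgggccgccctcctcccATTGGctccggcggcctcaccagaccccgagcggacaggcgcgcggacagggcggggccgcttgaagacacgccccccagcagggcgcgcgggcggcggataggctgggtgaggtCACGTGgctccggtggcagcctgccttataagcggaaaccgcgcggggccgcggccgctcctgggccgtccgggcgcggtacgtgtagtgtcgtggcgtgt
Eci1 (chr17:24426433-24426682, plus strand): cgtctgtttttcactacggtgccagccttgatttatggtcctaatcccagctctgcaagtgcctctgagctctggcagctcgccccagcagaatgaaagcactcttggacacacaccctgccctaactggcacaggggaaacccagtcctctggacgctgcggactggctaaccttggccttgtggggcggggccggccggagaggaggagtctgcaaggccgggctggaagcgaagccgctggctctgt
In Fasn the CCAAT matches began at -90, -62 and -59 from the start, the last 2 overlapping on opposite strands. Elovl5 had CCAAT at -71 and -17 and CACGTG at -161. Slc25a1 and Insig1 each had 1 of both kinds, at -125 and -239 in Slc25a1 and at -216 and -101 in Insig1.

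Cholesterol genes were lower as well, but few passed. Of 18 measured genes of cholesterol synthesis and uptake, 2 fell (11.1%, against 0.79% of all genes), 0 rose and 13 had lower values, with a median of -0.42. Stard4, which carries cholesterol between membranes, fell (log2 difference -0.49, SE 0.0838, adjusted p = 0.00917), with 8.92, 9.08 and 9.37 on low-fat and 8.49, 8.6 and 8.75 on high-fat arrays. Insig1, which holds the SREBP escort protein in the endoplasmic reticulum, fell by 0.45 (adjusted p = 0.0279) and missed the threshold without KO LF 1, KO LF 3, WT HF 1, WT HF 2, WT HF 3, WT LF 1 or WT LF 3 (-0.46 to -0.42, adjusted p = 0.0506 to 0.0874). The count of falls was 1 without WT LF 1, KO LF 1, KO LF 3, WT HF 1, WT HF 2 or WT HF 3. Among those not past the threshold, the largest differences were those of the synthases Fdps, at -1.05 (adjusted p = 0.0746), and Lss, at -0.57 (adjusted p = 0.084), and the epoxidase Sqle, at -0.74 (adjusted p = 0.358). Sqle spread from 5.07 to 7.24 on low-fat and from 5.12 to 5.92 on high-fat arrays.

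Srebf1, the gene of SREBP-1c, is not analysed here. Of the 15 regulators of lipogenesis that were measured 1 fell (6.67%, against 0.79% of all genes), Insig1 again, and the median was -0.04. Mlxipl, which encodes ChREBP, had 9.97, 10.1 and 10.21 on low-fat and 9.74, 10.07 and 10.16 on high-fat arrays, and a difference of -0.07 (SE 0.0761, adjusted p = 0.778). Pparg, a receptor that drives fat storage, was dim, at 3.23, 3.75 and 4.0 on low-fat and 3.84, 4.13 and 4.52 on high-fat arrays (difference 0.46, adjusted p = 0.124), and passed without KO HF 1 (0.56, adjusted p = 0.0456) or WT LF 2 (0.57, adjusted p = 0.031). The coactivator Ppargc1b had -0.38 (adjusted p = 0.141).

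Genes of mitochondrial beta-oxidation moved the other way, by less. Of 17 measured members 9 rose and 0 fell, against 1.18% of all genes rising, and all 17 had higher values on the high-fat diet, with a median of 0.26 (0.27 in wild-type and 0.30 in knockout livers). The arrays of both diets were fully separated for 8 members, against 1.14% of all genes separated with higher values on the high-fat diet. Without each array in turn 6 to 11 rose, and 6 rose without KO LF 2 and KO HF 3.

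Eci1, the isomerase that moves double bonds so that unsaturated fatty acids can be oxidised, had the largest difference of the list. It was at 10.09, 10.21 and 10.32 on low-fat and 10.68, 10.94 and 11.03 on high-fat arrays, with no overlap, and rose 1.62-fold (log2 difference 0.7, SE 0.0673, adjusted p = 0.000104). Etfdh, which passes electrons from the acyl-CoA dehydrogenases to ubiquinone, was at 10.14, 10.24 and 10.48 and 10.5, 10.69 and 10.85 (difference 0.41, SE 0.0636, adjusted p = 0.00443). Genes of some steps of the spiral itself rose too. The acyl-CoA dehydrogenases Acadm and Acadl had 0.31 (adjusted p = 0.00121) and 0.27 (adjusted p = 0.00682). Hadhb, the thiolase subunit of the trifunctional protein, had 0.33 (adjusted p = 0.00566) and the dehydrogenase Hadh 0.22 (adjusted p = 0.00312). Acadm was at 11.84, 11.91 and 12.02 on low-fat and 12.14, 12.25 and 12.32 on high-fat arrays, a rise of 1.24-fold that exceeded the spread within each diet. These 6 genes kept their call without each array in turn.

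The calls of the other 3 genes' brightest probe sets depended on single arrays. Decr1, a reductase for polyunsaturated fatty acids, had 0.34 and missed the threshold without KO HF 2, WT HF 1, WT HF 2 or WT LF 1 (0.30 to 0.35, adjusted p = 0.0624 to 0.0742), and without KO LF 2 and KO HF 3 together (0.38, adjusted p = 0.0531). Its second probe set had 0.60 (adjusted p = 0.00178), with no overlap between the diets. Slc25a20, the acylcarnitine carrier of the shuttle, had 0.38 and was lost without KO HF 2, KO HF 3, KO LF 1, KO LF 3, WT HF 1, WT HF 2 or WT LF 1 (0.31 to 0.38, adjusted p = 0.0562 to 0.0903), and without KO LF 2 and KO HF 3 together (0.41, adjusted p = 0.0672). Its second probe set had 0.48 (adjusted p = 0.0126). Acadvl, the very-long-chain dehydrogenase, had 0.20, a call lost without KO HF 1, KO HF 2, KO HF 3, KO LF 1, KO LF 2, KO LF 3, WT HF 1, WT HF 2, WT LF 1 or WT LF 3 (0.18 to 0.21, adjusted p = 0.0601 to 0.133), and without KO LF 2 and KO HF 3 together (0.21, adjusted p = 0.111). Cpt1a, the entry enzyme of the shuttle, did not pass, at 11.13, 11.28 and 11.64 on low-fat and 11.48, 11.57 and 11.71 on high-fat arrays (difference 0.23, SE 0.0684, adjusted p = 0.145), nor did Cpt2 (0.38, adjusted p = 0.0657).

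Peroxisomal oxidation shared the direction. Of 18 measured genes 5 rose (27.8%, against 1.18% of all genes) and 0 fell. Higher values were found for 15, against 51.4% of all genes, and the median was 0.18. The count of rises was 3 without KO HF 2, KO HF 3, KO LF 1, WT HF 1 or WT HF 2, and 3 without KO LF 2 and KO HF 3. Decr2, the peroxisomal reductase for polyunsaturated chains, was at 9.38, 9.66 and 10.09 on low-fat and 10.17, 10.32 and 10.36 on high-fat arrays (difference 0.57, SE 0.0679, adjusted p = 0.000682). Ehhadh, the bifunctional hydratase and dehydrogenase, was at 10.32, 10.45 and 10.67 and 10.82, 10.95 and 11.31 (difference 0.51, adjusted p = 0.00899). Hsd17b4, the second bifunctional enzyme, had 0.31 (adjusted p = 0.00363), and all 3 kept their call without each array in turn. The thiolase Acaa1a had 0.37 and missed the threshold without KO HF 2, KO HF 3, KO LF 1, WT HF 1 or WT HF 2 (0.34 to 0.37, adjusted p = 0.0624 to 0.0715), and without KO LF 2 and KO HF 3 together (0.37, adjusted p = 0.0844). Its other probe sets had 0.46, 0.36 and 0.24 and did not pass (adjusted p = 0.0505, 0.24 and 0.266). The thioesterase Acot8 had 0.37, a call lost without KO HF 2, KO HF 3, KO LF 1, KO LF 2, WT HF 1, WT HF 2, WT LF 1, WT LF 2 or WT LF 3 (0.33 to 0.39, adjusted p = 0.0625 to 0.137), and without KO LF 2 and KO HF 3 together (0.31, adjusted p = 0.197).

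**Figure D3:**
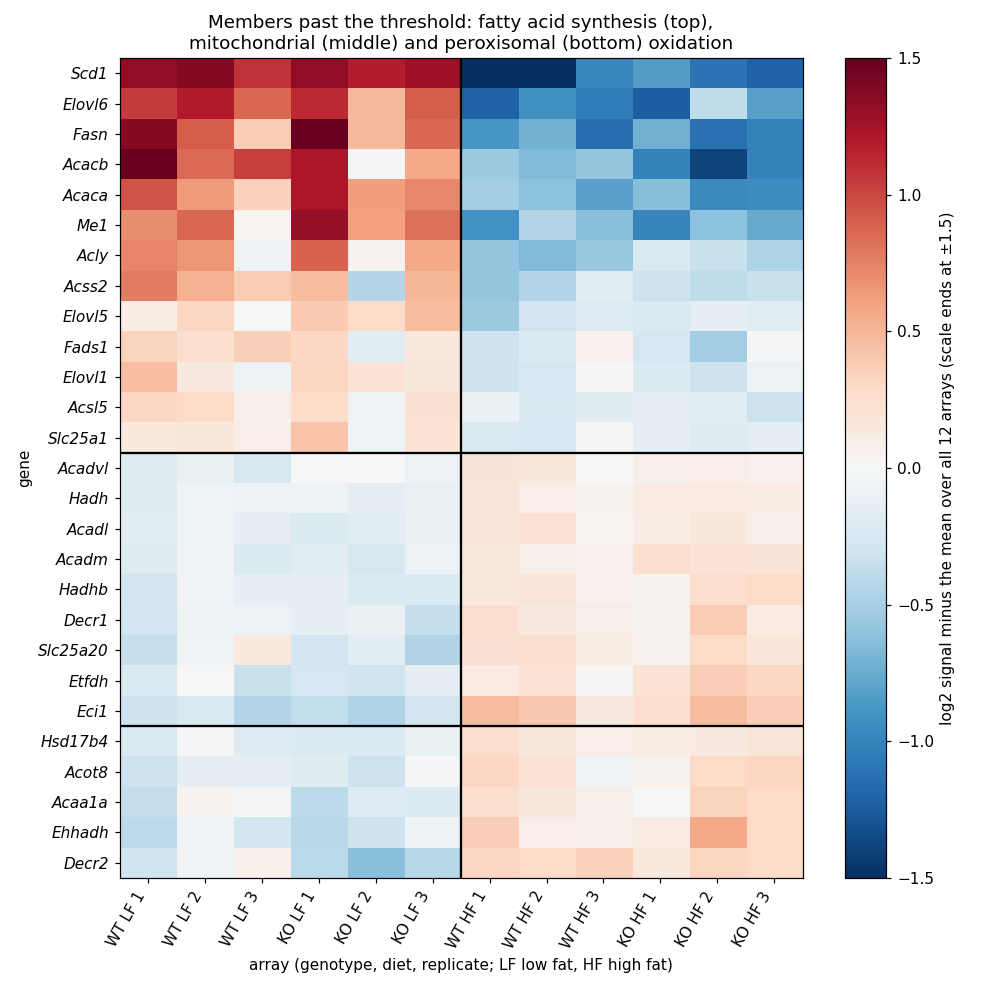
Rows are the 27 members of 3 lists that passed and columns the 12 arrays. Colour gives the log2 signal minus the gene's mean over all arrays, from blue (lower) to red (higher), and ends at 1.5 on either side. The 13 synthesis genes are mostly red on the left and blue on the right. The 9 mitochondrial and 5 peroxisomal genes mostly run the other way. Their colours are paler than those of the synthesis genes with the largest falls.

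Of 15 measured PPAR-alpha targets, 2 rose (13.3%, against 1.18% of all genes) and 0 fell, with 12 higher and a median of 0.15. Cyp4a10, the cytochrome that oxidises the far end of fatty acids, was at 8.01, 9.7 and 11.37 on low-fat and 11.74, 11.89 and 12.18 on high-fat arrays. Low-fat arrays spread over 3 units, WT LF 3 being highest and KO LF 1 lowest, while high-fat arrays lay close together above them. The rise was 4.37-fold (log2 difference 2.13, SE 0.365, adjusted p = 0.00919), and was not called with a robust variance (adjusted p = 0.0872). Close relatives of Cyp4a10 may share its probes. Vnn1, a pantetheinase, had the largest rise of any gene, from 4.72, 6.84 and 8.22 on low-fat to 8.34, 8.82 and 9.87 on high-fat arrays (log2 difference 2.33, SE 0.455, adjusted p = 0.0195), a call lost without KO HF 2, WT HF 1 or WT LF 1 (2.01 to 2.19, adjusted p = 0.0525 to 0.0619), and without KO LF 2 and KO HF 3 together (2.47, adjusted p = 0.0596). Ppara itself had 0.12 (adjusted p = 0.535), the fasting hormone Fgf21 0.63 (adjusted p = 0.421) and the pyruvate dehydrogenase kinase Pdk4, which was dim, -0.09 (adjusted p = 0.9). The list's count was 1 without WT LF 1, KO HF 2 or WT HF 1.

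Of 15 genes of fatty acid uptake and binding, 2 rose and 2 fell (13.3% each, against 1.18% and 0.79% of all genes), with a median of 0.09. Fabp5, a fatty acid binding protein, was at 10.55, 11.34 and 11.95 on low-fat and 7.86, 9.44 and 10.5 on high-fat arrays, without overlap. Its high-fat values were spread alike in both genotypes, at 7.87, 9.53 and 10.5 in WT and 7.86, 9.36 and 10.05 in KO livers. It fell 4.21-fold (log2 difference -2.07, SE 0.413, adjusted p = 0.0218) and missed the threshold without KO LF 1, KO LF 2 or WT LF 1 (-2.03 to -1.94, adjusted p = 0.0505 to 0.0727). Dbi, the acyl-CoA binding protein, fell by 0.35 (adjusted p = 0.00412). Slc27a2, a fatty acid transporter and acyl-CoA synthetase, rose by 0.21 (adjusted p = 0.00753), with 12.63 to 12.84 on low-fat and 12.89 to 13.0 on high-fat arrays, and missed the threshold without KO LF 2 and KO HF 3 together (0.20, adjusted p = 0.0526). Fabp2 had 0.48, a call lost without KO HF 2, KO HF 3, KO LF 1, KO LF 2, WT HF 1, WT HF 2, WT HF 3, WT LF 1 or WT LF 3 (0.42 to 0.5, adjusted p = 0.0524 to 0.0888), and without KO LF 2 and KO HF 3 together (0.44, adjusted p = 0.126). Cd36, the scavenger receptor that imports fatty acids, had 0.78 (SE 0.204, adjusted p = 0.0864) and did not pass.

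Among 17 lipid droplet proteins 15 had higher values, 1 rose (5.88%, against 1.18% of all genes) and 0 fell, with a median of 0.06. The gene that rose was Fitm1, a protein of the endoplasmic reticulum that promotes droplet formation and is best known from muscle. It was at 5.18, 5.38 and 5.86 on low-fat and 6.5, 6.86 and 7.42 on high-fat arrays, so that the diets did not overlap, and rose 2.79-fold (log2 difference 1.48, SE 0.133, adjusted p = 7.56e-05), by 1.22 in wild-type and 1.74 in knockout livers. Its relative Fitm2 had 0.21 (adjusted p = 0.433), and Plin2, the main droplet coat protein of liver, 0.29 (adjusted p = 0.593), with 10.11 to 11.51 on low-fat and 10.92 to 11.55 on high-fat arrays. Cidea, a droplet fusion protein, was near the dim end of the array at 2.81 to 3.41 and 2.91 to 3.45. Of 14 genes of triglyceride assembly 1 rose (7.14%, against 1.18% of all genes). This was the acyltransferase Gpat3 (0.53, SE 0.0954, adjusted p = 0.0127), which had 0.16 in wild-type and 0.89 in knockout livers (adjusted p of the difference 0.873). Its call was lost without KO LF 2 and KO HF 3 together (0.5, adjusted p = 0.0699), in the additive model (adjusted p = 0.066) and without a genotype term (adjusted p = 0.0962). Among 6 ketone body genes the thiolase Acat1 rose (0.42, SE 0.0441, adjusted p = 0.000205), at 11.49, 11.59 and 11.77 on low-fat and 11.88, 12.03 and 12.12 on high-fat arrays.

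Lists outside lipid metabolism had few calls or none. Of 25 listed and measured genes of oxidative phosphorylation, which do not include the subunit isoform Cox6b2 described below, 0 rose and 0 fell, and the median was -0.02 with a range from -0.18 to 0.12. Of 18 genes of insulin signalling and 15 of glycolysis and glucose uptake, 0 passed, with medians of -0.04 and -0.06. Among 13 genes of glucose production, Gys2, the liver's glycogen synthase, fell by 0.34 (adjusted p = 0.0138), a call lost without KO LF 2 and KO HF 3 together (-0.31, adjusted p = 0.0626). Mpc1, a subunit of the mitochondrial pyruvate carrier, had 0.26, a call lost without KO HF 1, KO HF 2, KO HF 3, KO LF 1, KO LF 2, WT HF 1, WT HF 2, WT LF 1 or WT LF 3 (0.23 to 0.28, adjusted p = 0.052 to 0.105), and without KO LF 2 and KO HF 3 together (0.26, adjusted p = 0.0966). The plot of the gene lists sets these groups beside the lipid lists.

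Bile acid genes had 2 rises among 18 (11.1%, against 1.18% of all genes), with a median of 0.07. Akr1d1, the steroid reductase of bile acid synthesis, had 0.51 (SE 0.0837, adjusted p = 0.00659), with 0.27 in wild-type and 0.76 in knockout livers. Its second probe set had 0.36 (adjusted p = 0.00579), with 0.08 in wild-type and 0.64 in knockout livers. The adjusted p of the difference between genotypes was 0.873 for both probe sets. Abcc3, an exporter of bile salts to blood, had 0.60 (adjusted p = 0.0179), a call lost without KO HF 2, KO LF 1 or WT HF 1 (0.56 to 0.58, adjusted p = 0.0522 to 0.0566). The count was 1 without KO HF 2, KO LF 1 or WT HF 1 and 5 without WT LF 2. Cyp7a1, the rate-limiting enzyme of bile acid synthesis, had 0.56 (adjusted p = 0.421), with 9.97 to 11.84 on low-fat and 11.02 to 11.79 on high-fat arrays.

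Genes that mark the position of hepatocytes in the lobule had opposite medians. All 11 measured pericentral genes, those of hepatocytes near the outflow vein, had higher values on the high-fat diet, against 51.4% of all genes. Their median was 0.36, and 3 rose (27.3%, against 1.18% of all genes). The 3 were the glutamate transporter Slc1a2 (0.66), ornithine aminotransferase Oat (0.46) and the secreted protein Lect2 (0.31). The count was 0 without WT LF 1 and 1 without KO HF 1, KO HF 2, KO HF 3, WT LF 3, KO LF 1, KO LF 2 or WT HF 1, and 0 without KO LF 2 and KO HF 3. Among these, Slc1a2 was lost without WT LF 1 (0.63, adjusted p = 0.0539), and without KO LF 2 and KO HF 3 together (0.62, adjusted p = 0.0808). Oat was lost without KO HF 1, KO HF 2, KO HF 3, KO LF 1, KO LF 2, WT HF 1, WT HF 3, WT LF 1 or WT LF 3 (0.39 to 0.48, adjusted p = 0.0513 to 0.0672), and without KO LF 2 and KO HF 3 together (0.45, adjusted p = 0.104). Lect2 was lost without KO HF 1, KO HF 2, KO HF 3, KO LF 1, KO LF 2, WT HF 1, WT HF 2, WT LF 1 or WT LF 3 (0.27 to 0.33, adjusted p = 0.0511 to 0.0915), and without KO LF 2 and KO HF 3 together (0.32, adjusted p = 0.0893). Of 10 periportal genes, those of hepatocytes near the inflow, 2 fell (20%, against 0.79% of all genes) and the median was -0.10. Hal, which breaks down histidine, was at 10.57, 10.72 and 11.05 on low-fat and 10.1, 10.18 and 10.45 on high-fat arrays, with no overlap (difference -0.52, SE 0.0822, adjusted p = 0.00526). Cyp2f2 had -0.20, a call lost without KO HF 1, KO HF 2, KO LF 1, KO LF 2, KO LF 3, WT HF 1, WT HF 2, WT LF 1 or WT LF 2 (-0.21 to -0.17, adjusted p = 0.0549 to 0.0971), and without KO LF 2 and KO HF 3 together (-0.22, adjusted p = 0.0779). Whether the share of each kind of hepatocyte or its RNA content differed cannot be told apart in whole liver, and the same holds for every cell type below.

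Many of the largest changes lay outside the lipid lists. Of the 15 largest falls 7 belong to a lipid list, and of the 15 largest rises 3 do. Over all calls, 17 of the 135 falls and 21 of the 201 rises belong to one. The lipid lists held 6 to 20 measured genes each, a small part of the 17097 genes.

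Among the falls, Etnppl, which breaks down phosphoethanolamine, had -1.83 (SE 0.285, adjusted p = 0.00483), by -1.24 in wild-type and -2.42 in knockout livers. Vegfb, a growth factor of the VEGF family linked to endothelial fatty acid uptake, was at 5.48, 5.75 and 6.18 on low-fat and 4.29, 4.62 and 4.92 on high-fat arrays. It fell 2.27-fold (log2 difference -1.18, SE 0.11, adjusted p = 9.19e-05), from 5.55, 5.54 and 5.48 in WT LF and 6.06, 5.95 and 6.18 in KO LF livers to a shared range on the high-fat diet. Reck, a membrane inhibitor of metalloproteinases, was at 5.15, 5.55 and 5.85 and 4.03, 4.26 and 4.44 (-1.28, SE 0.124, adjusted p = 0.000104). Rnd2, a small GTPase, was at 6.61, 7.0 and 7.23 and 5.54, 5.79 and 5.95 (-1.18, SE 0.112, adjusted p = 9.29e-05). Neither gene had overlapping arrays. Atg16l2, a relative of an autophagy protein, fell by 1.42 (adjusted p = 0.000922) and the retinal reductase Rdh11 by 1.23 (adjusted p = 0.00597). The tubulin Tubb2a fell by 1.19 and the RNA gene Snhg11 by 1.38 (adjusted p = 0.00122 and 0.00325). These 8 genes kept their call without each array in turn.

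Among the rises, Meg3, a long noncoding RNA of the imprinted Dlk1-Dio3 region, was at 5.98, 6.22 and 6.68 on low-fat and 7.23, 8.05 and 8.53 on high-fat arrays, with no overlap. It rose 3.48-fold (log2 difference 1.8, SE 0.196, adjusted p = 0.00029), by 1.71 in wild-type and 1.88 in knockout livers. Of its 10 probe sets 4 rose, the dimmest of them at a mean signal of 3.86. The brighter ones of these had mean signals of 5.64, 5.96 and 7.15. The other 6 probe sets, with mean signals of up to 4.51, had differences between -0.04 and 0.21. Why these did not rise was not tested. Among 13 measured imprinted genes it was the 1 that passed (7.69%, against 1.18% of all genes rising), and the list's median was 0.07. Its neighbour Rian was dim, and 1 of its 4 probe sets had 0.62 (adjusted p = 0.0699) without passing.

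Rad51b, a gene of DNA repair, was at 5.16, 6.0 and 6.23 on low-fat and 6.3, 7.95 and 8.5 on high-fat arrays (1.69, SE 0.241, adjusted p = 0.00255), with a dimmer second probe set at -0.09. Cox6b2, an isoform of a cytochrome oxidase subunit, was at 7.97, 8.26 and 8.54 and 9.07, 9.39 and 9.73 (1.18, SE 0.0954, adjusted p = 2.37e-05). The difference of Cox6b2 was one of the few past the threshold in each genotype alone, at 1.32 in wild-type and 1.04 in knockout livers. Dio1, which activates thyroid hormone, had 1.21 (adjusted p = 0.00361), the ubiquitin ligase Pdzrn3 1.42 (adjusted p = 0.000733) and the oxysterol-binding relative Osbpl3 1.34 (adjusted p = 0.00544). All 5 kept their call without each array in turn.

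Mt1, a metallothionein that binds zinc, spread widely, at 7.85, 9.29 and 11.73 on low-fat and 10.3, 11.76 and 12.37 on high-fat arrays. Its difference of 1.87 (SE 0.39, adjusted p = 0.0283) was lost without KO HF 1, KO HF 3, KO LF 2, WT HF 1, WT HF 2, WT HF 3 or WT LF 1 (1.63 to 1.94, adjusted p = 0.0509 to 0.0865), and without KO LF 2 and KO HF 3 together (1.43, adjusted p = 0.12). The dimmer second probe set of Mt1 (mean log2 signal 5.43) had 0.74 and did not pass (adjusted p = 0.4285). Neat1, the RNA scaffold of paraspeckles, had 1.15, lost without KO HF 2 or WT LF 1 (1.06 to 1.09, adjusted p = 0.0502 to 0.052), and without KO LF 2 and KO HF 3 together (1.13, adjusted p = 0.0718), and with a robust variance (adjusted p = 0.0928). Gm2788 had 1.22, lost without KO HF 2, KO HF 3, KO LF 1, WT HF 1, WT HF 2, WT HF 3, WT LF 1 or WT LF 3 (1.06 to 1.23, adjusted p = 0.0563 to 0.0683). Adgrv1, an adhesion receptor, had 1.22 (adjusted p = 0.0119) and kept its call without each array in turn, but missed it without KO LF 2 and KO HF 3 together (1.16, adjusted p = 0.062).

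Some rises in the average came mainly from one genotype by value, though the difference between genotypes passed for 0 probe sets. Of 23 measured interferon-stimulated genes, 21 had higher values on the high-fat diet, against 51.4% of all genes. Of the 23, 2 rose (8.7%, against 1.18% of all genes) and 0 fell. Their median was 0.25, with 0.05 in wild-type and 0.39 in knockout livers. Ifit3, the gene of an antiviral protein, was at 6.15, 6.24 and 6.16 on WT LF and 6.06, 6.08 and 6.27 on WT HF arrays, which overlap. On KO LF arrays it was at 5.79, 5.59 and 5.74 and on KO HF arrays at 7.55, 6.83 and 6.85, which do not. Its average of 0.66 (SE 0.117, adjusted p = 0.0111) thus joins -0.05 in wild-type and 1.37 in knockout livers, and the difference between these had an adjusted p of 0.772. Iigp1, a GTPase of antimicrobial defence, had 0.28, a call lost without KO HF 2, KO HF 3, KO LF 1, KO LF 3, WT HF 1, WT HF 2, WT HF 3, WT LF 2 or WT LF 3 (0.25 to 0.29, adjusted p = 0.0551 to 0.112), and without KO LF 2 and KO HF 3 together (0.29, adjusted p = 0.0916). The second probe set of Iigp1 had 0.18 and did not pass (adjusted p = 0.477). The count of rises was 1 without KO HF 2, WT LF 2, WT LF 3, KO LF 1, WT HF 1, WT HF 2 or WT HF 3.

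The chemokine Cxcl10 showed the same split, at 3.65, 3.26 and 3.51 on WT HF and 5.06, 4.8 and 4.27 on KO HF arrays, against 3.28 to 3.71 on the low-fat diet. It was dim on all arrays but those of KO HF, below the array medians of 3.94 to 4, so a small change in wild-type livers could go unseen. Of 17 cytokines and chemokines 1 rose (5.88%, against 1.18% of all genes). This was Cxcl10 (0.67, SE 0.125, adjusted p = 0.0156), which missed the threshold without WT LF 1 (0.65, adjusted p = 0.0511). Acute phase genes had 3 rises among 22 (13.6%, against 1.18% of all genes), with a median of 0.03, and 5 rises without WT LF 3. Lcn2, a lipocalin that binds bacterial iron carriers, was at 5.08, 4.71 and 6.24 on WT LF, 6.22, 6.1 and 6.18 on WT HF, 5.39, 4.98 and 4.84 on KO LF and 8.74, 8.16 and 6.94 on KO HF arrays. Its average of 1.85 (SE 0.279, adjusted p = 0.00379) joins 0.83 in wild-type and 2.88 in knockout livers. The serum amyloids Saa2 and Saa1, near-identical genes whose probes may not tell them apart, had 1.25 and 1.13 (adjusted p = 0.013 and 0.0176), and Saa1 was lost without KO LF 2 and KO HF 3 together (1.03, adjusted p = 0.0531). The other acute phase genes, among them the fibrinogen chains and haptoglobin Hp, lay between -0.21 and 0.87 without passing.

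**Figure D4:**
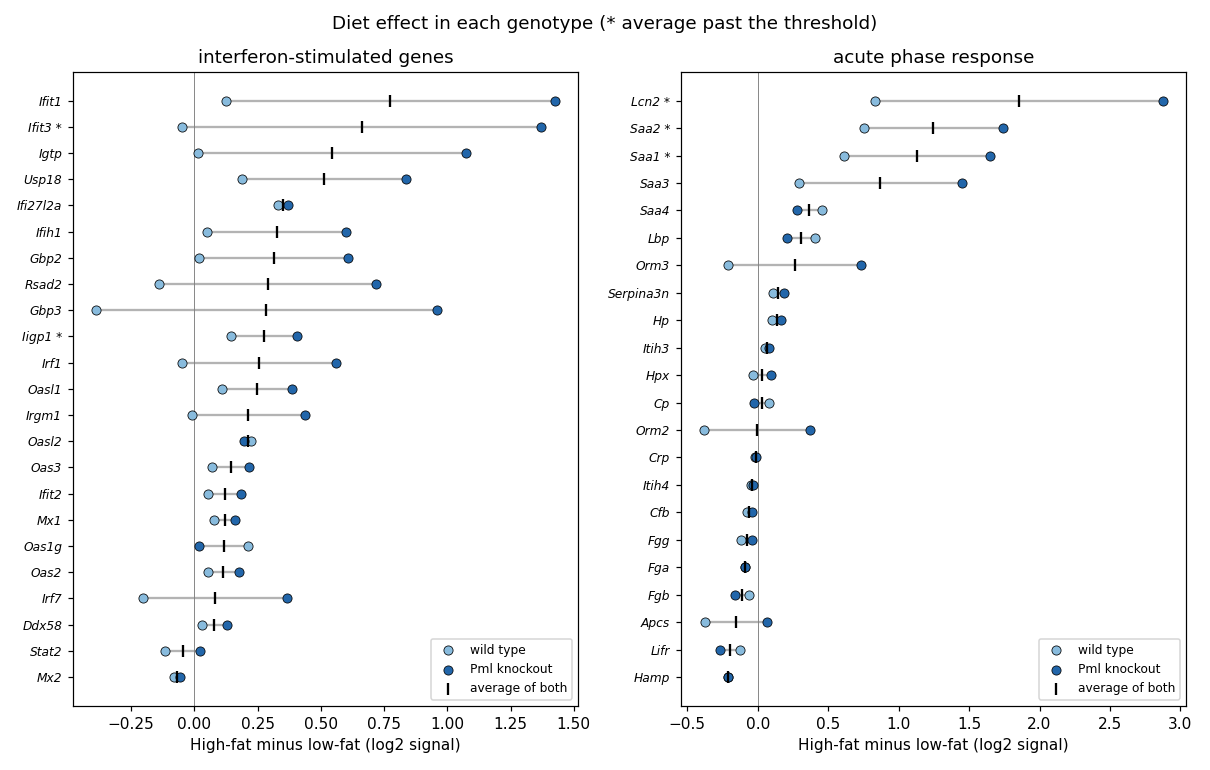
For every measured member of 2 lists the diet difference (x axis, log2 signal) is shown in wild-type livers (light points), in knockout livers (dark points) and on average (black ticks), with an asterisk where the average passed. Most interferon-stimulated genes lie further to the right in knockout livers, while most acute phase genes other than Lcn2, Saa1, Saa2 and Saa3 lie near 0 in both.

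Markers of other cell types were measured on the same arrays. Of 15 Kupffer cell and macrophage markers 12 had higher values on the high-fat diet, 0 passed and the median was 0.29. Their mean log2 signal ran from 4.77 to 6.18 on low-fat and from 5.19 to 6.41 on high-fat arrays, with the low ends at KO LF 2 and KO HF 3. Of these markers 5 were below 5 (Timd4, Marco, Cd68, Itgam and Ccr2), while Clec4f, which defines Kupffer cells, was at a mean of 7.26 and Adgre1 at 6.62. The list's median was 0.14 without KO HF 1, 0.53 without KO HF 3, 0.58 without KO LF 1 and 0.04 without KO LF 2. Of 14 liver endothelial markers 12 had lower values, 0 passed and the median was -0.24 (-0.04 in wild-type and -0.48 in knockout livers). Their mean ran from 6.01 to 6.92 on low-fat and from 5.85 to 6.72 on high-fat arrays, 3 markers were below 5, and the median was -0.39 without KO HF 1 and -0.13 without KO LF 1. Stellate cell markers had a median of 0.16 over 11 genes, 4 of them below 5, with means of 5.88 to 6.49 on low-fat and 6.02 to 6.66 on high-fat arrays. Their median was 0.04 without KO HF 1, 0.25 without KO HF 3, 0.27 without WT LF 2, 0.08 without WT LF 3, 0.27 without KO LF 1, 0.04 without KO LF 3, 0.07 without WT HF 1 and 0.25 without WT HF 3. Neutrophil markers were below 5 for 8 of 8, and adipocyte markers for 4 of 6. The mean levels of T and NK cell, B cell, cholangiocyte and skeletal muscle markers lay between 3.59 and 4.17 on every array. The part of these cells in the rises of the interferon, chemokine and acute phase genes was not tested.

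Hepatocyte markers had a mean of 12.55 to 12.63 on low-fat and 12.41 to 12.51 on high-fat arrays, which do not overlap. Of the 10 measured 7 had lower values, with a median of -0.04. Alb, albumin, had 0.00 and Apoa1 0.04, while the transcription factor Cebpa had -0.40 (SE 0.0858, adjusted p = 0.0314), the 1 member that passed, a call lost without KO HF 2, KO HF 3, KO LF 2, KO LF 3, WT HF 1, WT HF 3, WT LF 1 or WT LF 2 (-0.41 to -0.35, adjusted p = 0.0551 to 0.0861), and without KO LF 2 and KO HF 3 together (-0.36, adjusted p = 0.129). The enzyme Tat had -0.36 and Hnf4a -0.18, neither past the threshold.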

How the data were processed

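RNA of 12 liver extracts from male mice was measured on Affymetrix HT MG-430 PM arrays. The authors deposited log2 signals per probe set; the submitters' processing notes name RMA, and the sources used here give no version. RMA brings arrays to a shared distribution and can understate differences at both ends of the signal range. Of 45141 probe sets, 104 controls, 15588 without a gene and 551 with several genes were left out of the main test, which left 28898. Gene names came from the platform annotation; 28689 of the identifiers matched RefSeq and 0 symbols changed. With limma 3.58.1 under R 4.3.3, a mean was fitted to each of 4 groups, with a variance trend and 8 residual degrees of freedom, and differences were called at an adjusted p under 0.05 (Benjamini-Hochberg). The contrasts were the average diet effect, the diet effect in each genotype and their difference. SE are limma's.

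The members and gene lists were chosen with earlier results of these data known, so lists carry counts and medians and no p. Named genes were Pml, Scd1, Fasn, Fitm1 and Meg3, the 15 largest rises and falls, up to 4 called members of each list by size, a set of lipid genes always considered and the 5 smallest p of the genotype difference. Other genes named, such as the remaining called members of the lipid lists, were chosen after their values were seen. Some of the considered genes are not reported here. The code was tested on simulated data. Alternatives were quantile normalization, median centring, filters on the dimmest 40%, 1 probe set a gene, variance and model settings, array weights, the replicate number as a block and leaving out each array.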

Additional observations from a re-analysis of the deposited data

Results flagged for a closer look

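In 2 of the 176 sets of 6 arrays examined, 1 array lay far from the other 5; chance alone gives about 1 in 20. Decr2 was at 10.17 on KO HF 1, below the other high-fat arrays at 10.3 to 10.36. Slc16a5, a monocarboxylate carrier named for its small p in the test of the genotype difference, was at 4.73 on WT HF 2, below the others at 5.48 to 5.89. Among the probe sets without a single gene, which the main comparison does not use, 49 passed in the diet comparison when tested in the same way. Of 15588 with no gene 23 were higher and 23 lower, with differences of up to 3.86 and down to -1.21, and of 551 with several genes 1 was higher and 2 were lower.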

How the results depend on the processing

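Over both genotypes 434 probe sets passed. The count was between 327 and 514 with quantile normalization, median centring, filters on dim probe sets, 1 probe set a gene, no variance trend, robust variance, an additive model or no genotype term. It was 637 with array weights and 687 at an adjusted p under 0.10, where wild-type livers had 71 and 41 calls and knockout livers 365 and 460. The knockout arrays fitted alone gave 80. Leaving out each array gave 216 to 489 calls for the average effect, 13 to 35 in wild-type livers, 73 to 394 in knockout livers and 0 to 1 for the genotype difference. Without KO LF 2 and KO HF 3 there were 211 calls for the average effect and 74 in knockout livers. Deviations of same-numbered arrays of different groups had a median r of 0.06 over 18 pairs, beside -0.03 over 36 pairs of unlike numbers. Of the 18 pairs 6 lay above 0.1, and 6 of 12 arrays were closest to their own number. The highest were KO HF 1 with KO LF 1 (0.39) and KO HF 2 with KO LF 2 (0.31). The labels do not say that equal numbers belong together, so the numbers were not taken as pairs. With the replicate number as a block 441, 29, 216 and 0 probe sets passed for the average effect, in wild-type livers, in knockout livers and for the difference.

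For the 83 called genes examined one by one, 1737 of 2071 refits kept the call, 334 lost it and 0 turned its direction, over 25 alternatives, and 40 genes kept it in all of them. The settings that lost the most genes were those without KO LF 2 and KO HF 3 (31 genes), WT LF 1 (29), WT HF 1 (29), KO HF 2 (27), KO LF 1 (25), WT HF 2 (25) and the variance trend (24). Robust variance lost 12, among them Vnn1 (2.33, adjusted p = 0.124), Cyp4a10 (2.13, adjusted p = 0.0872), Fabp5 (-2.07, adjusted p = 0.131), Saa1 (1.13, adjusted p = 0.0976) and Saa2 (1.25, adjusted p = 0.0827). The cause was not tested. Ifit3, Cxcl10 and Gpat3 were also lost in the additive model (adjusted p = 0.179, 0.11 and 0.066). Dim probe sets, at a log2 signal near 4 or less, limit what can be seen.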

Other observations

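Several gene groups not described above had few calls by number. Their shares stand beside the 1.18% of all genes that rose and the 0.79% that fell. Of 27 cytochrome P450 genes of drug metabolism, 1 rose (3.7%) and 2 fell (7.41%). Cyp2c37 had 0.65 (adjusted p = 0.0266), and was lost without KO HF 2, KO HF 3, KO LF 1, KO LF 2, WT HF 1, WT LF 1 or WT LF 2 (0.56 to 0.65, adjusted p = 0.0554 to 0.0786), and without KO LF 2 and KO HF 3 together (0.62, adjusted p = 0.108). Cyp3a41a, a P450 biased towards females, was dim and had -0.56 (adjusted p = 0.024), lost without KO HF 3, KO LF 1, WT HF 1, WT HF 2 or WT LF 3 (-0.57 to -0.48, adjusted p = 0.0517 to 0.0732), and without KO LF 2 and KO HF 3 together (-0.48, adjusted p = 0.0979). Of 23 NRF2 and glutathione genes 2 fell (8.7%), both glutathione transferases of the mu class, whose close relatives may share probes. Gstm6 was at 8.63, 8.9 and 9.45 on low-fat and 7.74, 7.85 and 8.35 on high-fat arrays (-1.02, SE 0.13, adjusted p = 0.00115) and kept its call without each array in turn. Gstm3 had -0.68, lost without KO HF 2, KO HF 3, KO LF 1, KO LF 2, WT HF 1, WT HF 2, WT LF 1 or WT LF 2 (-0.69 to -0.58, adjusted p = 0.0727 to 0.131), and without KO LF 2 and KO HF 3 together (-0.62, adjusted p = 0.154). Its second probe set had -0.65 and did not pass (adjusted p = 0.111). Of 14 genes of the urea cycle and amino acid breakdown, Prodh, which oxidises proline, had 0.38, lost without KO HF 2, KO LF 2, WT HF 1, WT HF 2 or WT LF 1 (0.33 to 0.39, adjusted p = 0.0503 to 0.0778), and without KO LF 2 and KO HF 3 together (0.38, adjusted p = 0.0568).

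Of 17 clock genes 1 fell (5.88%), the repressor Cry1 (-0.48), lost without KO HF 1, KO HF 2, KO HF 3, KO LF 1, KO LF 2, WT HF 1, WT HF 2, WT HF 3, WT LF 1 or WT LF 3 (-0.52 to -0.40, adjusted p = 0.0591 to 0.131), and without KO LF 2 and KO HF 3 together (-0.54, adjusted p = 0.0803). Of 17 apolipoprotein and export genes 1 fell (5.88%), Apoa5 (-0.19), lost without KO HF 1, KO HF 2, KO HF 3, KO LF 1, KO LF 2, WT HF 1, WT HF 2, WT HF 3, WT LF 2 or WT LF 3 (-0.21 to -0.17, adjusted p = 0.0526 to 0.101), and without KO LF 2 and KO HF 3 together (-0.21, adjusted p = 0.0856), and Apoa4 had -0.14 (adjusted p = 0.36). Of 19 autophagy genes Atg5 had 0.36, lost without KO HF 1, KO HF 2, KO HF 3, KO LF 1, KO LF 2, WT HF 1, WT HF 2, WT HF 3, WT LF 1 or WT LF 3 (0.31 to 0.38, adjusted p = 0.0635 to 0.123), and without KO LF 2 and KO HF 3 together (0.30, adjusted p = 0.17). The other probe sets of Atg5 had 0.17 and 0.27 and did not pass (adjusted p = 0.486 and 0.28). No member passed among 21 genes of the unfolded protein response, 19 of fibrosis and matrix, 20 of the cell cycle, 17 targets of p53, 14 immediate early genes and 8 of MHC class II, with medians between -0.04 and 0.08. Among the 5 genes with the smallest p of the genotype difference, Mterf2, of the mitochondrial transcription termination family, had 0.41 in wild-type and 1.47 in knockout livers, and the zinc finger gene Zfp771 had 0.00 and -0.61. The kinase Srpk1 had 0.11 and -0.82. None of these differences between genotypes passed (smallest adjusted p 0.772).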
